A study of Homo sapiens with 4 samples.

Results

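The peaks examined here lay at bidirectional promoters, where the starts of 2 protein-coding genes on opposite DNA strands are close together. They came from ZNF217 CUT&Tag in untreated MV4-11 and U937 cells. MV4-11 is a human myelomonocytic leukemia line with B-lineage features, and U937 is a human line of monocytic character. CUT&Tag marks the places in chromatin that an antibody reaches by letting a tethered transposase cut there, and the series holds 4 samples, a ZNF217 library and an IgG control library for each line, without replicates. The IgG libraries are not analysed here. A peak was a member when its midpoint lay within 1000 bp of transcription start sites of protein-coding transcripts from 2 different genes on opposite strands, on chromosomes 1 to 22 and X, by GENCODE release 44 on hg38. Of 60156 listed peaks, 2558 were members, 1334 of 37635 in MV4-11 and 1224 of 22521 in U937. The lists give a chromosome, a start and an end for each peak and no height or read count, so sequencing depth is unknown and width was the one size that could be compared.

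In a bidirectional promoter the first exons point away from each other, and transcription starts in both directions from a shared stretch of open DNA. Such promoters are usually rich in CpG dinucleotides and poor in TATA boxes, and they are known for serving housekeeping genes, among them many for DNA repair, mitochondria and protein synthesis. ZNF217 is a C2H2 zinc finger protein that binds DNA and is found with corepressor complexes that hold histone demethylase and deacetylase activity. It is amplified in several carcinomas and was studied here as a factor of the acute myeloid leukemia regulatory circuit.

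The stretches between the starts of well-known pairs are shown first, because the peaks described in the following paragraphs sat over these bases. Each sequence is the hg38 plus strand read 5′ to 3′, from the start of the gene on the minus strand to the start of the gene on the plus strand, and the minus-strand gene is named first throughout. Capitals mark matches, on either strand, to any of 14 short motifs, named ETS, NRF1, YY1, SP/KLF, CRE, NFY, TATA, E-box, ZBTB33, ZNF143/THAP11, RUNX, PU.1, AP-1 and ZNF217, whose letters are given where each is first described. The 6 pairs of the first group were covered by a peak in both lines.
SURF1/SURF2 (chr9:133356487-133356550): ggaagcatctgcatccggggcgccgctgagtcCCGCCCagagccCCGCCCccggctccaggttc
ZAR1L/BRCA2 (chr13:32315363-32315508): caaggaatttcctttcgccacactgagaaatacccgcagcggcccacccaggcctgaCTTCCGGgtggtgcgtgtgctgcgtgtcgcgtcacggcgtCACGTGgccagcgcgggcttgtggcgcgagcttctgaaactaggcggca
NTHL1/TSC2 (chr16:2047834-2047985): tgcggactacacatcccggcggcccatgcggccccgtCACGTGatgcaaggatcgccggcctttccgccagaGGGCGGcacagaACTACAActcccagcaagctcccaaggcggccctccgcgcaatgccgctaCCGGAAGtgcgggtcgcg
POLE/PXMP2 (chr12:132687342-132687587): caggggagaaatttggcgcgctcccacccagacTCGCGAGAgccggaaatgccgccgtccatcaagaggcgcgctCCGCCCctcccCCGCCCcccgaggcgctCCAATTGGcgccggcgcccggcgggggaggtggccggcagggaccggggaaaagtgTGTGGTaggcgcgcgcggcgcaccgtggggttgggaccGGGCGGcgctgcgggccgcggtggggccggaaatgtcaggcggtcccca
MRE11/ANKRD49 (chr11:94493844-94493984): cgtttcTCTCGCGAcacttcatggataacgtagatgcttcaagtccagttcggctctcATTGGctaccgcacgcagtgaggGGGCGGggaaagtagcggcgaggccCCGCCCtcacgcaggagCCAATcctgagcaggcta
SARS2/MRPS12 (chr19:38930763-38930944): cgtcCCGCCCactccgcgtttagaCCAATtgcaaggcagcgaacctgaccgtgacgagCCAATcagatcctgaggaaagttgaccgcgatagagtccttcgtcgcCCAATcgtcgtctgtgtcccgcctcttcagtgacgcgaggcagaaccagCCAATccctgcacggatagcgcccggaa

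SURF1 assists assembly of cytochrome c oxidase, and the 64 bases that part it from SURF2 held 2 matches to the SP/KLF letters GGGCGG. The 146 bases between ZAR1L and BRCA2, a gene of homologous recombination, held 1 match to the ETS letters CCGGAAG and 1 to CACGTG, the E-box. NTHL1 encodes a base excision repair glycosylase and TSC2 encodes tuberin, and their 152 bases held 4 kinds of motif, with 1 match each to ETS, SP/KLF, E-box and the ZNF143/THAP11 letters ACTACAA. Between POLE, which encodes the catalytic subunit of DNA polymerase epsilon, and PXMP2, 3 SP/KLF matches, 1 match to the ZBTB33 letters TCTCGCGA and 1 to the RUNX letters TGTGGT were found. This stretch also held 2 matches to the NFY letters CCAAT, which overlapped each other on opposite strands. The promoter of MRE11, a nuclease gene of double-strand break repair, and ANKRD49 held 1 ZBTB33, 2 NFY and 2 SP/KLF matches. The stretch between SARS2 and MRPS12, 2 genes of mitochondrial translation, held 4 NFY matches and 1 SP/KLF match.

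The next 4 stretches are shown because they were not under a peak in both lines. COL4A1/COL4A2, the pair for the main basement membrane collagen chains, had no peak in either line. AKAP3/NDUFA9 lay under a peak in U937 and not in MV4-11, and ARFRP1/ZGPAT and POLL/DPCD lay under a peak in MV4-11 and not in U937.
COL4A1/COL4A2 (chr13:110307157-110307284): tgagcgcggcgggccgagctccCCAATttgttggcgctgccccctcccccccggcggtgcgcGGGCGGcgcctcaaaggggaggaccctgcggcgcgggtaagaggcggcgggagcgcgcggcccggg
AKAP3/NDUFA9 (chr12:4649051-4649114): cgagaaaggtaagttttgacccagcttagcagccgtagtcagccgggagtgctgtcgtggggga
ARFRP1/ZGPAT (chr20:63707976-63708039): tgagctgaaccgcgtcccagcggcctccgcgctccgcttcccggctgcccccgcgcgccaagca
POLL/DPCD (chr10:101588257-101588321): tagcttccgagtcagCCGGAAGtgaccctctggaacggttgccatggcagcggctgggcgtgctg

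The collagen stretch held 1 NFY and 1 SP/KLF match, POLL/DPCD held 1 ETS match, and the other two held none of the 14 motifs. No match says only that these letters are absent from this window.

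Members made up 11.5% of the MV4-11 peaks near any protein-coding start and 13.2% of the corresponding U937 peaks. The positions that satisfy the rule cover 3.02 Mb, which is 4.21% of all bases within 1000 bp of a protein-coding start. In that territory MV4-11 had 442 peaks per Mb and U937 had 406, against 150 and 117 per Mb where only genes of 1 strand start within 1000 bp. Peaks of the latter kind are called single promoter peaks, and there were 10286 in MV4-11 and 8025 in U937. Promoters shared with a noncoding RNA count as single under this definition.

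The member peaks reached 2597 genes in MV4-11 and 2419 in U937, of which 2307 were reached in both. A further 290 genes were reached in MV4-11 and not in U937, and 112 in U937 and not in MV4-11. Reached means within 1000 bp of a member midpoint, so a gene not reached in a line may still lie under a peak there. By the start itself, 2500 of all 19625 protein-coding genes lay under a peak in MV4-11 alone, and 534 in U937 alone. Most members had 2 genes within 1000 bp of the midpoint, 1273 in MV4-11 and 1162 in U937, and 57 in each line had 3 genes. The closest 2 genes stood head to head in 95.7% of MV4-11 members and 95.5% of U937 members. In the remaining 57 and 55 peaks the starts lay past each other and pointed inward, which is called overlapping starts here. The main (canonical) starts of both genes were within 1000 bp of the midpoint in 67.5% of MV4-11 and 69.3% of U937 members, so the others qualified through an alternative start. An example is ACTA2/FAS, the genes for smooth muscle actin and a death receptor, whose canonical starts are 38025 bp apart. Readthrough genes or genes without a symbol were part of 57 MV4-11 and 54 U937 members.

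Whether the peaks recurred in the other line was asked next. In MV4-11, 1179 of 1334 members overlapped a U937 peak by at least 1 bp, a share of 88.4% (Wilson 95% interval 86.5 to 90.0). Over all MV4-11 peaks the share was 40.4%, and over single promoter peaks it was 68.2%. The difference between members and single promoter peaks was 20.1 percentage points (Newcombe 95% interval 18.1 to 21.99). In U937, 1195 of 1224 members overlapped an MV4-11 peak, which is 97.6% (96.6 to 98.3), beside 68.6% of all U937 peaks and 89.2% of single promoter peaks. The U937 difference was 8.41 points (7.20 to 9.41). These intervals cover counting error alone, since all peaks of a line come from 1 library, and no p-value can be given for a line.

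Members were also wider than single promoter peaks. The median width was 1180 bp in MV4-11 (quartiles 812 and 1660.25, range 285 to 6014) and 907 bp for single promoter peaks, a difference of 273 bp (95% interval 221 to 323). In U937 the medians were 1071 bp (quartiles 771 and 1441.5, range 331 to 4099) and 864 bp, a difference of 207 bp (160 to 239). Shared members had a median of 1252 bp (MV4-11) and 1082 bp (U937). Members without a partner in the other line had medians of 713 and 587 bp. Width and sharing thus moved together, and sharing was therefore compared within 5 width classes of all promoter peaks. Among the narrowest MV4-11 promoter peaks, 283 to 541 bp, 54.3% of 105 members and 34.1% of 2220 single promoter peaks were shared. Among the widest, from 1566 bp, the shares were 95.1% of 388 and 90.1% of 1935. In U937 they were 88.4% and 73.2% in the narrowest class and 99.4% and 98.0% in the widest. Members had the higher share in each of the 5 classes in both lines, and the difference averaged over the classes was 13.7 points in MV4-11 and 6.63 points in U937. The smallest width listed was 283 bp in MV4-11 and 330 bp in U937, and 10 MV4-11 members were narrower than any U937 peak.

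**Figure D1:**
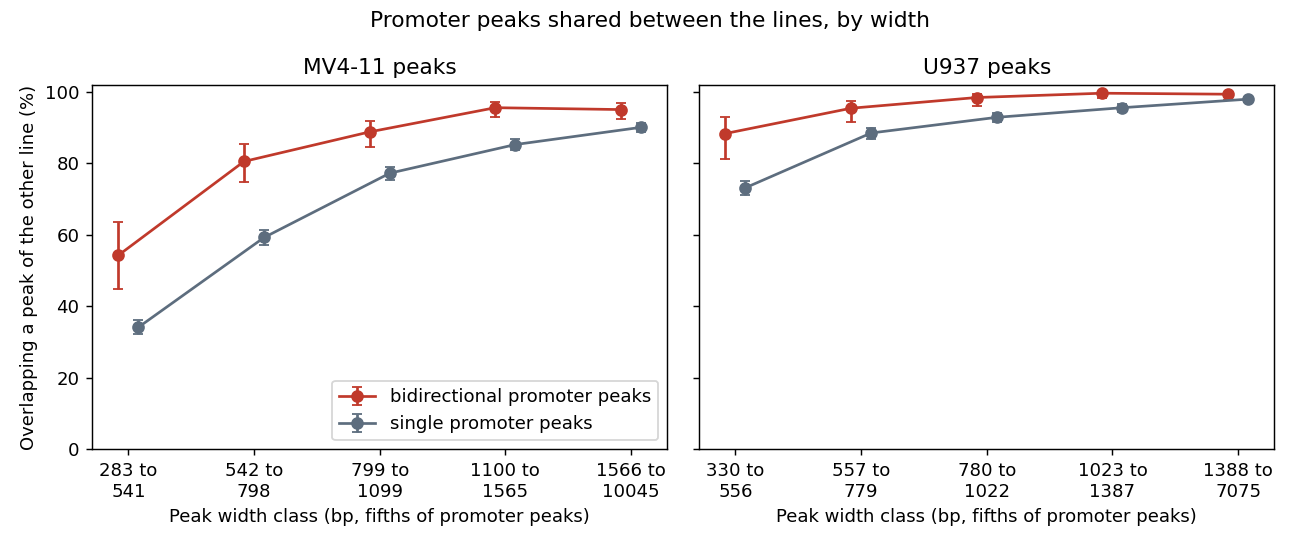
Percent of promoter peaks that overlapped a peak of the other line (y axis) in 5 width classes in bp (x axis), for MV4-11 (left) and U937 (right). Red points are bidirectional and grey points single promoter peaks, with Wilson 95% intervals, and the red points stood above the grey ones in every class, from 54.3% against 34.1% in the narrowest MV4-11 class to 99.4% against 98.0% in the widest U937 class.

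In MV4-11 the share was lower at greater distances from the starts, and the largest step was at the 1000 bp limit of the rule. With the farther of the 2 starts within 250 bp of the midpoint, 91.6% of 690 peaks were shared. With the farther start at 750 to 1000 bp the share was 75% of 96, and in the first 250 bp outside the limit it was 54.9% of 91. In U937 the same distances gave 98.3% of 603, 89.3% of 75 and 92.7% of 55. The member nearest to the limit had its farther start at 999 bp in MV4-11 and 994 bp in U937, with widths of 546 and 2472 bp. The nearest peak outside lay at 1001 bp in MV4-11 and 1002 bp in U937, with widths of 1816 and 1824 bp.

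The peaks chosen by the rule cannot show how many bidirectional promoters were left without a peak, so gene pairs were also taken from the annotation alone. The canonical starts of 1969 genes formed 1007 pairs on opposite strands at most 1000 bp apart. Of these pairs 949 were head to head, with a median distance of 233 bp between the starts (quartiles 122 and 401), and 58 had overlapping starts. Since 44 genes belonged to more than 1 pair, some pairs share a promoter. A peak touched the stretch between the starts in 917 pairs in MV4-11, or 91.1% (89.1 to 92.7), and in 846 pairs in U937, or 84.0% (81.6 to 86.1). Only this stretch was scored, so a pair counted without a peak in a line may have one beside its starts. Both lines had a peak at 835 pairs, MV4-11 and not U937 at 82, U937 and not MV4-11 at 11, and neither line at 79. Hence 98.7% of the pairs occupied in U937 were also occupied in MV4-11, and 91.1% of those occupied in MV4-11 were occupied in U937. Scored by the start itself, these shares were 97.7% and 86.7% for the genes of the pairs. For all protein-coding genes, scored in the same way, they were 93.02% and 73.996%. The MV4-11 list is the longer one, and cell line and library cannot be told apart in this design. With both lists cut to their widest 21737 peaks, 87.6% of pairs were occupied in MV4-11.

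As background, the start itself lay under a peak for 49.0% of 19625 protein-coding genes in MV4-11 and for 39.0% in U937. For single promoters, meaning the 16848 canonical starts with no opposite-strand protein-coding start within 2000 bp, the shares were 43.5% and 33.7%. Pairs exceeded single promoters by 47.6 points (45.5 to 49.3) in MV4-11 and by 50.3 points (47.8 to 52.6) in U937. A stretch between 2 starts is a larger target than a start, and with the start itself counted for each gene of a pair the shares were 88.2% and 78.3%. The differences were then 44.7 points (43.0 to 46.2) and 44.6 points (42.6 to 46.5). By any base between the starts, occupancy of head-to-head pairs was lowest at 1 to 100 bp, with 86.2% in MV4-11 and 76.8% in U937. It was highest at 201 to 300 bp in MV4-11 (95.9%) and at 301 to 500 bp in U937 (90.6%). This target grows with the distance. At the centre alone, the shares were 87.4% and 77.3% for starts 1 to 200 bp apart. They were 94.7% and 87.8% at 201 to 500 bp, and 84.9% and 74.1% at 501 to 1000 bp. Pairs with overlapping starts were occupied at 79.3% (67.2 to 87.7) and 70.7% (58.0 to 80.8).

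**Figure D2:**
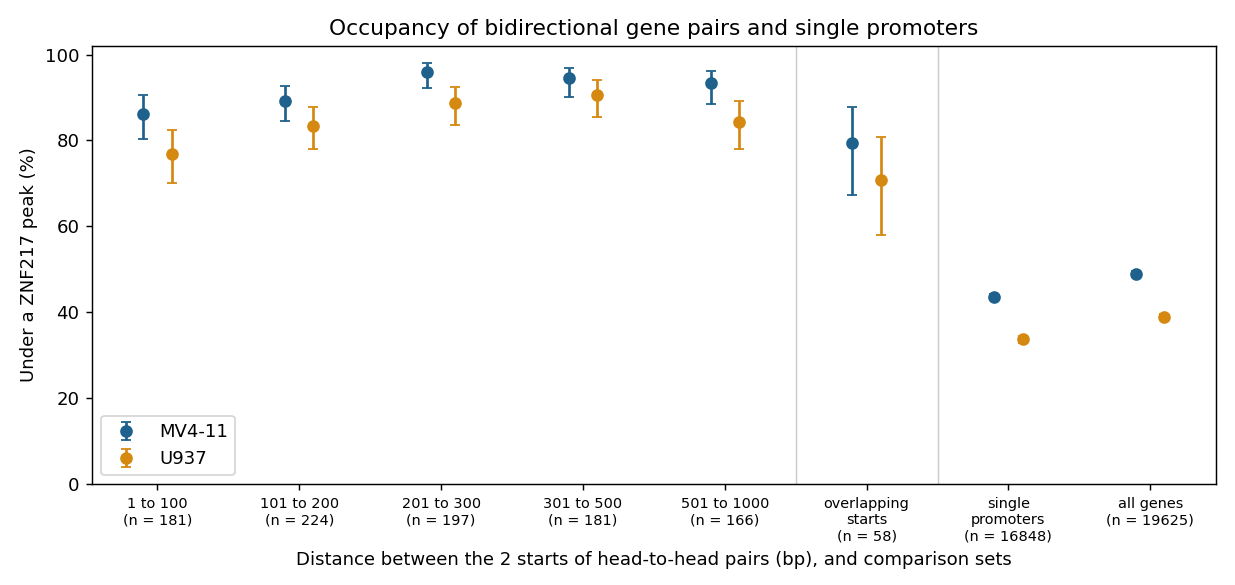
Percent of promoters under a ZNF217 peak (y axis) in MV4-11 (blue) and U937 (orange), for head-to-head pairs by distance between the starts in bp, pairs with overlapping starts, single promoters and all protein-coding genes (x axis, n in brackets). Bars are Wilson 95% intervals, and every pair class lay above single promoters, at 70.7% or more against 43.5% in MV4-11 and 33.7% in U937.

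CpG content differed between these sets and was given beside occupancy. The CpG observed to expected ratio in 300 bp had a median of 0.878 over the pairs and 0.785 over single promoters. These windows were centred between the starts for pairs and on the start itself for single promoters. Pairs were occupied more often than single promoters in each of 6 CpG classes, by any base between the starts and by the centre alone. The lowest class, with ratios below 0.2, held 8 pairs. The pair shares that follow count any base between the starts unless stated. At ratios of 0.8 to 1, 93.1% of 461 pairs and 62.0% of 5818 single promoters were occupied in MV4-11, and 88.7% and 49.2% in U937. At ratios of 0.2 to 0.4 the shares were 61.1% of 18 pairs against 12.8% of 2261 single promoters in MV4-11, and 44.4% against 8.14% in U937. Counted by the centre between the starts alone, these 18 pairs were occupied at 44.4% in MV4-11 and 22.2% in U937. Averaged over the classes of the pairs, the differences were 34.9 points in MV4-11 and 39.9 points in U937. These averages count any base between the starts, so the larger target of the pairs remains in them.

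Peaks usually covered the whole promoter. At occupied head-to-head pairs, the peaks covered both starts in 820 of 871 cases in MV4-11, or 94.1% (92.4 to 95.5), and in 712 of 805 in U937, or 88.4% (86.1 to 90.5). The share fell with distance, from 98.1% at 1 to 100 bp to 82.6% at 501 to 1000 bp in MV4-11, and from 94.2% to 70.0% in U937. No listed peak was narrower than 283 bp in MV4-11 or 330 bp in U937. At the closest pairs, a peak that touches the stretch will thus mostly cover both starts by its width alone. The shares were not compared with those of peaks placed without regard to the starts. Where a single start was covered, it was the plus-strand start 23 times and the minus-strand start 27 times in MV4-11, and 42 and 45 times in U937. The median width of the widest peak rose from 969 bp at the closest pairs to 1546 bp at the most distant in MV4-11, and from 1017 to 1302 bp in U937. Across pairs, distance and width had a Spearman rho of 0.30 (n = 871) in MV4-11 and 0.19 (n = 805) in U937, given as a description since the pairs share a library. The widths of the 2 lines had a rho of 0.60 over the 835 pairs occupied in both. The MV4-11 peak was the wider one at 547 of them, the U937 peak at 286, and the widths were equal at 2, with a median ratio of 1.12 (MV4-11 to U937). Differences of more than 2-fold were found at 77 pairs with the wider peak in MV4-11 and 20 with the wider peak in U937.

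Coverage was highest at or within 350 bp of the centre of the pair. At head-to-head pairs with starts 201 to 500 bp apart, it reached 94.97% in MV4-11 and 88.4% in U937 near the centre. It was 61.9% and 54.2% at 500 bp on the minus-gene side, and 61.6% and 52.1% at 500 bp on the plus-gene side. At 2000 bp it was between 1.59% and 6.88% on either side in these pairs. Single promoters reached 43.5% and 34.2% and had less coverage 500 bp upstream than 500 bp downstream, 22.6% against 24.7% in MV4-11 and 17.0% against 19.4% in U937. The stretch covered at over 50% of the maximum measured 950 bp at pairs 1 to 200 bp apart and 1650 bp at pairs 501 to 1000 bp apart in MV4-11, and 950 and 1400 bp in U937.

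**Figure D3:**
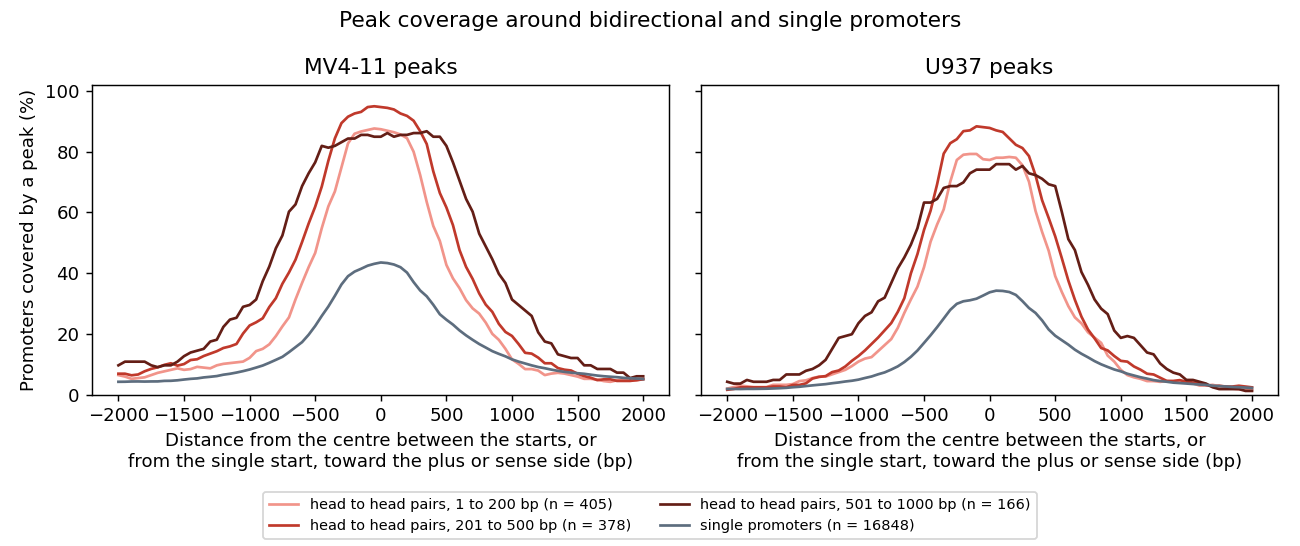
Percent of promoters covered by a peak (y axis) at each distance in bp from the centre between the starts, or from the start of single promoters (x axis, positive toward the plus-strand gene or the sense side), in MV4-11 (left) and U937 (right). Red lines are head-to-head pairs by distance between the starts, highest at 94.97% in MV4-11 and 88.4% in U937, and the grey line is single promoters, highest at 43.5% and 34.2%.

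The midpoints of members were placed against the canonical starts where these were at most 1000 bp apart and both within the rule. The midpoint lay between the starts in 391 of 834 MV4-11 members, or 46.9% (43.5 to 50.3), and in 376 of 784 U937 members, or 48.0% (44.5 to 51.5). The stretch between the starts was on average 19.3% and 18.9% of the positions that the rule admits at these pairs. The remaining midpoints were evenly split, with 221 beyond the plus-strand start and 222 beyond the minus-strand start in MV4-11, and 194 and 214 in U937. The median distance of the midpoint from the centre was 134 bp in MV4-11 and 134.5 bp in U937. At 788 head-to-head pairs with 1 peak in each line, the midpoints lay on the same side of the centre in 514, or 65.2%. Where both midpoints were more than 100 bp off the centre, they were on the same side in 268 of 335 pairs, or 80.0%. The midpoints of the 2 lines differed by a median of 108.25 bp.

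Single values are given for 20 long-known bidirectional pairs. In GENCODE 44 the canonical starts were at most 1000 bp apart in 17 of them, and 15 of the 17 were occupied in both lines. HSPD1/HSPE1, the pair of the mitochondrial chaperonin and its cochaperonin, had peak widths of 1838 bp (MV4-11) and 1754 bp (U937) over starts 539 bp apart. NPAT/ATM joins a coactivator of histone genes and the double-strand break kinase, and its peaks were 2053 and 930 bp wide. At PRKDC/MCM4, a DNA repair kinase gene and a replicative helicase gene, the widths were 2571 and 2238 bp.

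The 3 pairs of nucleotide synthesis were occupied. PPAT/PAICS, 2 enzymes of purine synthesis, had peak widths of 1460 bp (MV4-11) and 1496 bp (U937), and GART/SON, a purine enzyme and a splicing factor, had 1503 and 2308 bp. TK1/AFMID, with the thymidine kinase of dividing cells, had 1374 and 1130 bp.

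Repair and replication pairs followed the same pattern. ZAR1L/BRCA2 had 1849 bp in MV4-11 and 1439 bp in U937, NTHL1/TSC2 had 1556 and 1865 bp, and MRE11/ANKRD49 had 1015 and 944 bp. TMEM258/FEN1, with the flap endonuclease, had 1203 and 1252 bp, and UFD1/CDC45, with a subunit of the replicative helicase, had 1461 and 1098 bp. POLE/PXMP2 differed most, with 2529 bp in MV4-11 and 866 bp in U937. Its MV4-11 midpoint lay 649 bp toward PXMP2 and its U937 midpoint 205.5 bp toward POLE.

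Pairs of mitochondrial and other genes had a peak over both starts as well. SURF1/SURF2 had 715 bp in MV4-11 and 1019 bp in U937, and SARS2/MRPS12 had 1082 and 956 bp. PDCD10/SERPINI1, with the gene for neuroserpin, had 1799 and 1453 bp.

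Each of the 15 occupied pairs had 1 peak over both starts in each line. The peak was wider in MV4-11 at 10 and in U937 at 5, and all of these peaks were shared.

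The 2 unoccupied pairs were the type IV collagen pairs, COL4A1/COL4A2 with starts 127 bp apart and COL4A4/COL4A3 with 419 bp. For the 3 remaining pairs the canonical starts were more than 1000 bp apart. ALKBH2/UNG, at 4125 bp, had its widest peaks, of 1492 bp (MV4-11) and 1080 bp (U937), over the start of UNG, the uracil glycosylase gene, and not over that of ALKBH2. CAMK1/OGG1, with starts 19995 bp apart and pointing toward each other, had peaks of 1753 and 1447 bp over the start of OGG1, the glycosylase gene for oxidised guanine. TRMT2A/RANBP1, whose opposed starts lie 1122 bp past each other, had peaks of 2307 and 1829 bp that were members in both lines.

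**Figure D4:**
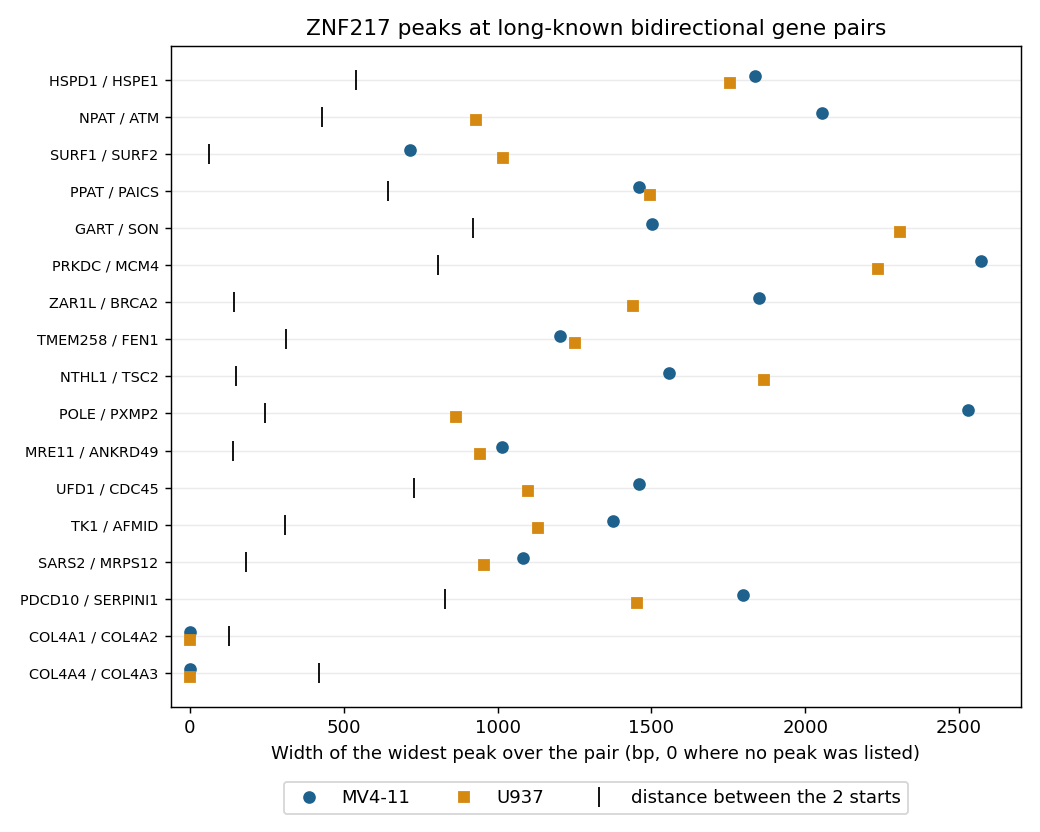
Width in bp (x axis) of the widest ZNF217 peak at 17 long-known pairs (y axis, minus-strand gene first) in MV4-11 (blue circles) and U937 (orange squares), with the distance between the starts as a tick. At 15 pairs 1 peak was wider than this distance and covered both starts, and the collagen pairs stood at 0 in both lines.

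The pairs were then counted by function, in 22 gene groups, of which 16 had members among the 1007 pairs. In these counts a pair with no peak in a line had none over the stretch between its starts. Genes of the translation and energy machinery had nearly all of their pairs occupied. Over all 1007 pairs 7.85% were occupied in neither line, so the background was also high. All 14 pairs with a cytosolic ribosomal protein gene had a peak in both lines, such as MED22/RPL7A with 2573 bp in MV4-11 and 1602 bp in U937. Mitochondrial ribosomal protein genes had 26 of 27 in both lines, and MRPL27/EME1 had a peak of 1160 bp in MV4-11 and none in U937. Respiratory chain and ATP synthase genes had 23 of 25 in both. The other two, AKAP3/NDUFA9 and NDUFA8/MORN5, each with a gene for a complex I subunit, had peaks of 884 and 431 bp in U937 and none in MV4-11. All 7 pairs with an aminoacyl-tRNA synthetase gene were occupied in both lines, among them HARS1/HARS2, the cytosolic and the mitochondrial histidyl-tRNA synthetase, with 1084 and 1183 bp. Mitochondrial import genes had 7 of 8 in both lines. Over all 1007 pairs 82.9% were occupied in both lines.

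Genes of the nucleus gave similar counts. DNA repair genes had 28 of 29 pairs occupied in both lines, for example CHEK2/HSCB with 1226 and 1102 bp and DESI1/XRCC6 with 1503 and 1614 bp. The remaining pair, RECQL4/LRRC14, had a peak of 2351 bp in MV4-11 and none in U937. All 15 replication and cell cycle pairs and all 16 spliceosome pairs were occupied in both. Examples are MCM7/AP4M1 with 1909 and 1830 bp, AURKA/CSTF1 with 1127 and 1226 bp, and CBX5/HNRNPA1 with 1913 and 1360 bp. For the transcription machinery, 25 of 28 pairs were occupied in both and 3 in MV4-11 and not U937, among them POLR2L/TSPAN4 with 862 bp.

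Proteasome and ubiquitin genes had 7 of 9 and 15 of 17 pairs occupied in both lines. TAP1/PSMB9, the pair of an antigen peptide transporter and an immunoproteasome subunit, had a peak of 895 bp in MV4-11 and none in U937. PSME4/ACYP2, with a proteasome activator gene, had 889 bp in MV4-11 and none in U937. Chaperone genes had 11 of 14 in both lines. HSPA1L/HSPA1A and CRYAB/HSPB2, both pairs of heat shock protein genes, had no peak in either. The lists name 169 sequences in MV4-11 and 153 in U937, and peaks outside chromosomes 1 to 22 and X were not counted. Whether reads of pairs such as TAP1/PSMB9 and HSPA1L/HSPA1A were placed on other sequences or gene copies was not tested.

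Histone promoters had the widest peaks by median width of the 15 groups with an occupied pair. Replication-dependent histone genes are packed in clusters, and many of their H2A and H2B genes stand head to head. Of 14 pairs with such a gene, 13 had a peak in MV4-11, 1013 to 4491 bp wide with a median of 2531 bp, and 10 had a peak in U937, 377 to 3452 bp wide with a median of 1938.5 bp. The medians over all occupied pairs were 1286 and 1118 bp. H2BC21/H2AC20 had 4469 bp in MV4-11 and 3152 bp in U937, and H2BC11/H2AC11 had 3385 and 3452 bp. H2BC8/H2AC8, H2AC15/H2BC15 and H2AC14/H2BC14 had peaks of 2762, 2584 and 2531 bp in MV4-11 and none in U937. H2AC1/H2BC1, a testis-specific pair, had none in either line. The pairs of H2BC7 with H2AC7 and with a gene without a symbol share 1 promoter and its peak. Histone genes have near-identical copies, so the placement of reads among them is uncertain.

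C2H2 zinc finger genes had 22 of 33 pairs occupied in both lines and 8 in neither, and solute carriers had 14 of 18 in both, beside the 82.9% of all pairs. No group was tested against the rest. SATL1/ZNF711 and OSBPL10/ZNF860 were among the zinc finger pairs without a peak. HOX genes, protocadherins, keratins, myeloid factors, monocyte and granulocyte effectors and neuronal genes formed no pair within 1000 bp, so the groups that define the cell lineage do not enter these counts. At the starts of lineage marker genes, 6 of 10 myeloid markers lay under an MV4-11 peak, among them CD14, MPO and CEBPA, and 2 of 10, SPI1 and CD33, under a U937 peak, beside 49.0% and 39.0% of all protein-coding starts. None of 5 T cell or 5 erythroid markers did in either line, and of 5 B cell markers CD22 and CD79A did in MV4-11.

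The widest members differed between the lines. In MV4-11 the widest shared members were TMEM276/KIFC2 with 6014 bp, VPS9D1/ZNF276 with 4668 bp, H2BC21/H2AC20 with 4469 bp, GPR108/TRIP10 with 4139 bp and PRPSAP1/SPHK1 with 4011 bp. In U937 they were STX10/IER2 with 4099 bp, PFN1/ENO3 with 3926 bp, C1orf109/CDCA8 with 3769 bp, DDIT3/MBD6 with 3467 bp and H2BC11/H2AC11 with 3452 bp. Several of these pairs have canonical starts more than 1000 bp apart. The distance is 30693 bp at PRPSAP1/SPHK1, 2100 bp at GPR108/TRIP10, 2589 bp at PFN1/ENO3, 2310 bp at DDIT3/MBD6 and 1987 bp at C1orf109/CDCA8. IER2 is an immediate early gene, PFN1 encodes the actin-binding protein profilin, CDCA8 a mitotic chromosomal passenger protein, and DDIT3 a stress-induced C/EBP-related factor. The widest member found in MV4-11 and not overlapped in U937 was HRAS/LRRC56 with 3237 bp, at the HRAS GTPase gene, with canonical starts 1951 bp apart. In U937 it was ACTA2/FAS with 1844 bp, and COX11/STXBP4, with a copper chaperone gene of cytochrome c oxidase, had 976 bp. Pairs occupied in 1 line had narrower peaks, with medians of 1143 bp against 1294 bp at pairs occupied in both for MV4-11, and 657 against 1121 bp for U937.

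Base composition and motifs were compared in the central 300 bp of each peak. The CpG observed to expected ratio had a median of 0.839 in MV4-11 members and 0.777 in single promoter peaks, a difference of 0.0625 (0.0469 to 0.0762). In U937 the medians were 0.830 and 0.792, a difference of 0.0380 (0.0254 to 0.0497). The median GC content was 65.3% in MV4-11 members and 66.0% in single promoter peaks, a difference of -0.67 points (-1.0 to 0.079), and 64.8% against 66.0% in U937, a difference of -1.17 points (-1.67 to -0.57). In MV4-11 the members without a U937 partner had a median CpG ratio of 0.771 and the shared members 0.844.

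The ETS motif, bound by the GABP and ELF families, showed the largest difference of the 14 in the central 300 bp. With 1 canonical start per gene in MV4-11 the NFY difference was larger, 9.06 against 8.83 points, and standardised over GC classes in U937 the SP/KLF difference was larger, 7.03 against 6.53 points. The ETS motif was present in 285 of 1334 MV4-11 members, or 21.4%, and in 12.2% of single promoter peaks, a difference of 9.13 points (6.92 to 11.5). In U937 it was in 19.5% of members and 12.8% of single promoter peaks, a difference of 6.73 points (4.48 to 9.15). Among 19625 canonical promoters, 13.4% held it in 300 bp. The windows of all promoters, here and below, were centred on the start and not on a peak. All intervals cover counting error alone, and the 14 motifs are not adjusted for their number.

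For 5 more motifs the interval lay above 0 in both lines. The NFY motif, a CCAAT box, was in 32.1% of MV4-11 members and 25.6% of single promoter peaks, and in 29.8% and 25.01% in U937. The SP/KLF motif was in 67.6% and 60.6% in MV4-11 and in 66.9% and 62.2% in U937. For YY1, searched as AAGATGGC, the shares were 5.55% and 3.51% in MV4-11 and 5.88% and 3.79% in U937, and for ZNF143/THAP11 they were 3.75% and 1.86%, and 4.74% and 2.03%. The ZBTB33 motif was the rarest of these, with 2.32% and 1.26% in MV4-11 and 2.61% and 1.51% in U937. Among all promoters NFY was found in 32.8%, SP/KLF in 61.8%, YY1 in 4.32%, ZNF143/THAP11 in 2.56% and ZBTB33 in 1.498%. The SP/KLF difference in MV4-11 was 1.93 points (-0.99 to 4.75) when shared peaks alone were compared and 2.20 points (-1.05 to 5.30) with 1 canonical start per gene, and in U937 it was 3.05 points (-0.32 to 6.26) with 1 canonical start per gene.

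NRF1, searched as CGCATGCG, and the E-box were more frequent in MV4-11 members, by 1.87 points (0.90 to 3.09) and 1.56 points (0.04 to 3.30). The E-box interval in MV4-11 included 0 in the central 500 bp (-0.13 to 3.83), for shared peaks (-0.45 to 3.10) and with canonical starts (-0.12 to 3.91). In U937 the differences of NRF1 and the E-box were 0.74 points (-0.14 to 1.88) and 1.36 points (-0.25 to 3.18). The difference between the lines was not tested. AP-1, searched as TGANTCA, was less frequent in members in both lines, with 2.70% against 4.13% in MV4-11 and 2.37% against 4.399% in U937. Its interval included 0 for whole peaks in both lines (-2.93 to 1.12 points in MV4-11 and -2.93 to 1.26 in U937) and with canonical starts in MV4-11 (-1.57 to 0.62). CRE (the letters TGACGTCA), PU.1 (searched with the letters GAGGAAGT), RUNX and TATA (as TATAAA) had intervals that included 0 in both lines. The palindromic NRF1, CRE, E-box and AP-1 letters match on both strands at the same place and were counted there as 1 match. None of the 14 motifs contains another. Among all promoters the shares were 2.50% for NRF1, 7.64% for the E-box, 4.62% for AP-1, 2.42% for CRE, 2.19% for PU.1, 9.88% for RUNX and 8.08% for TATA.

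The ZNF217 motif was taken as CAGAA with a purine before it, an A or T before the purine, and any base except A after it. It was in 5.85% of MV4-11 members and 8.41% of single promoter peaks, a difference of -2.56 points (-3.83 to -1.08). In U937 the shares were 6.78% and 8.29%, with a difference of -1.51 points (-2.93 to 0.15), and among all promoters it was in 9.62%. With shared peaks alone the MV4-11 difference was -1.41 points (-2.77 to 0.19), and with canonical starts it was -1.58 points (-3.03 to 0.22). The direction turned when whole peaks were searched, where the difference was 3.23 points (0.63 to 5.92) in MV4-11 and 2.74 points (0.09 to 5.51) in U937. Whole members are longer than whole single promoter peaks, so more bases were searched in them.

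**Figure D5:**
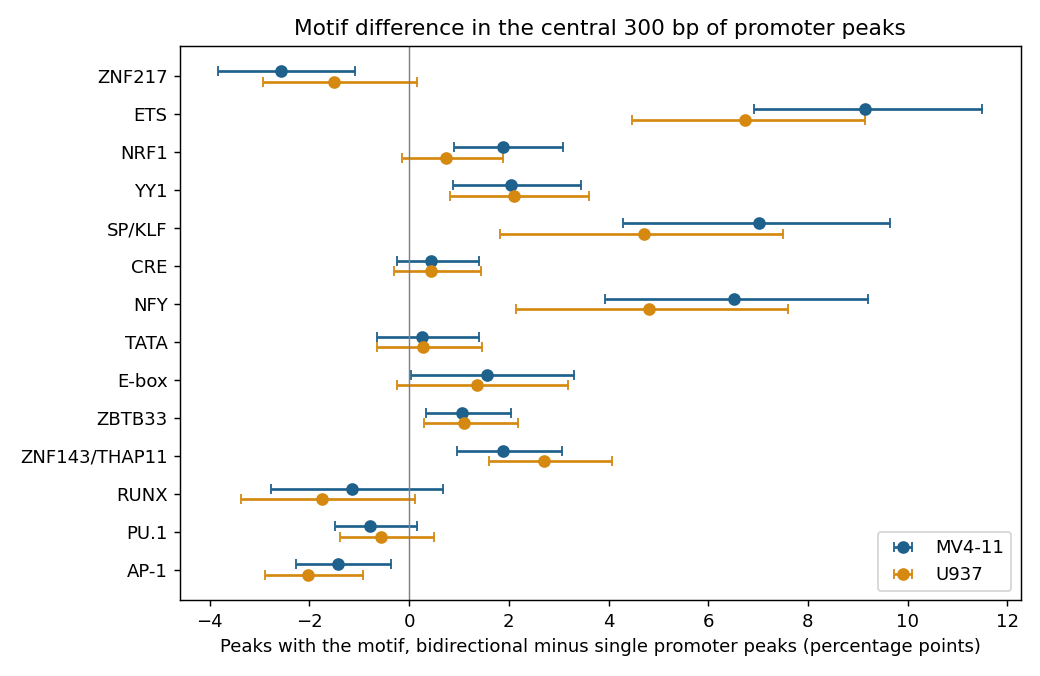
Percent of bidirectional minus percent of single promoter peaks with each of 14 motifs in the central 300 bp (x axis, percentage points), in MV4-11 (blue) and U937 (orange) with Newcombe 95% intervals. ETS lay farthest to the right, at 9.13 and 6.73 points, and ZNF217 and AP-1 lay left of 0 in both lines, with the U937 interval of ZNF217 reaching past 0.

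Motifs were also read from the pairs of the annotation, in 300 bp around the centre between the starts. At the 928 pairs occupied in at least 1 line the ETS motif was found in 31.1%, and at the 79 unoccupied pairs in 11, or 13.9%, a difference of 17.2 points (7.46 to 23.9). Single promoters held it in 11.6%, in a window centred on the start itself and so not placed as in the pairs. YY1 was found in 7.65% of occupied pairs and in none of the 79 unoccupied pairs, a difference of 7.65 points (2.76 to 9.54). The E-box was in 11.0% and 3.80%, a difference of 7.19 points (0.16 to 10.5). For the other 11 motifs the interval included 0. ZNF217 motifs were in 6.79% of occupied and 8.86% of unoccupied pairs. The unoccupied pairs had a median CpG ratio of 0.746, against 0.885 at pairs occupied in both lines.

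Along the 794 head-to-head pairs occupied in both lines, motif density within 150 bp of the centre was set against that at 500 to 1000 bp. ETS matches were 11.9 times as dense at the centre, with 14.5 against 1.22 matches per 100 pairs and 100 bp. NRF1 was 27.2 times as dense at the centre, from a low flank density of 0.0756. CRE was 8.46 times, YY1 8.15 times, SP/KLF 4.07 times and the E-box 2.95 times as dense there. The ratio was 2.51 for ZNF143/THAP11, 2.41 for NFY, 1.21 for PU.1 and 0.80 for RUNX. ZBTB33 had 1.93 matches at the centre and 0.0252 in the flanks. The ZNF217 motif was sparser at the centre than in the flanks, with 2.64 against 5.44 matches and a ratio of 0.49, as were TATA with a ratio of 0.37 and AP-1 with 0.44. The part of base composition in these ratios was not tested. Unoccupied pairs and single promoters were not measured in this way, so whether the ratios are particular to occupied pairs was not tested.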

How the data were processed

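ZNF217 CUT&Tag peaks of MV4-11 and U937 were used, with 1 library per line, grouped by sample title. Per the submitters' processing notes and the study's methods, the authors aligned reads to hg38 with Bowtie2 2.4.4 and called peaks per library with MACS3 3.0. The unit of the deposited columns is other than a signal unit: they hold positions in bp, with no score, and whether starts count from 0 or 1 was not stated, which leaves 1 bp of uncertainty. Whether IgG served as control in peak calling is not given in the sources used here. Midpoints were compared with GENCODE 44 starts. Closest pairs used canonical starts. Sequences were read with pysam from hg38 indexed by samtools 1.23.1, and 14 motifs were searched on both strands. Named pairs were a list of known pairs, of which 20 are given and the others are not reported here, the 5 widest shared and 5 widest unshared members per line, the members with most genes, up to 3 pairs per group and occupancy in alphabetical order, and the peaks nearest to the limit. Members and lists were chosen with earlier results of these data known. Intervals are Wilson, Newcombe or order-statistic, at 95%, and no p-value was calculated. Calculations used Python 3.11.15, NumPy 2.4.6, pandas 2.3.3 and SciPy 1.17.1, were tested on simulated data, and figures used Matplotlib 3.10.9. Alternatives changed overlap, width, window, starts, distance, search window and base composition.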

Additional observations from a re-analysis of the deposited data

How the results depend on the processing

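No paired analysis was possible because each line had 1 ZNF217 library, and no replicate could be left out. Over the summary values, 74 alternatives stayed inside the interval of the reported value (or within 1.5-fold for counts) and 38 moved outside it, none with a change of direction. A reciprocal overlap of 50% gave 73.8% shared members in MV4-11 and 80.9% in U937, and differences from single promoter peaks of 23.5 and 16.4 points. With the widest peaks in lists of 21737, the shares were 91.2% and 94.0%, the differences 13.9 and 12.4 points, the MV4-11 width difference 183 bp and the MV4-11 pair occupancy 87.6%. A minimum width of 400 bp gave a width difference of 220 bp in MV4-11. With midpoints within 500 bp, MV4-11 gave 90.7% shared, a difference of 17.9 points and a width difference of 185 bp. With 1 canonical start per gene the shares were 92.0% and 98.8% and the differences 16.6 and 6.85 points. Standardised over 5 width classes the differences were 13.7 and 6.63 points. With the starts nearest to the midpoint, 42.2% of U937 midpoints lay between them.

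For occupancy of pairs minus single promoters, alternatives chosen after seeing the data gave 34.9 and 39.9 points standardised over CpG classes, 44.7 and 44.6 points by the start of each gene, and 46.4 points by the centre in U937. The number of motifs less frequent in members was 0 for whole peaks in both lines, 1 for shared peaks and 0 for canonical starts in MV4-11, and 2 for the central 500 bp in U937. The CpG difference in MV4-11 was 0.0329 for whole peaks, 0.0248 for shared peaks, 0.0275 for canonical starts and 0.1204 standardised over GC classes, and in U937 0.0138 for whole peaks, 0.0202 for canonical starts and 0.0829 over GC classes. Over the single motifs 144 alternatives stayed, 23 moved and 1 reversed, the ZNF217 motif in MV4-11 at 3.23 points for whole peaks, where members have more bases to search. Apart from these constructions the cause was not tested. Depth is unknown, and a pair without a listed peak may hold signal under the authors' threshold.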

Other observations

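Pairs were occupied in both lines on every chromosome examined. The share ranged from 71.4% of 21 pairs on chromosome 22 and 72.1% of 61 on chromosome 6 to 96.97% of 33 on chromosome 4 and all 7 on chromosome 21. On chromosome 6, 55 pairs were occupied in MV4-11 and 44 in U937. The larger histone clusters lie on this chromosome, and 3 of its histone pairs were occupied in MV4-11 and not in U937. The remaining pairs of this difference were not histone pairs. On chromosome 4 the count was 32 in each line.

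A few members had 4 genes within 1000 bp of the midpoint. ABHD14B, PCBP4, ABHD14A and the readthrough ABHD14A-ACY1 shared a peak that measured 2290 bp (MV4-11) and 1360 bp (U937). BAG5, COA8, KLC1 and a gene without a symbol shared a peak of 1355 bp in MV4-11. In U937 the peak of 3152 bp at H2BC21/H2AC20 also reached H2AC21 and BOLA1.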
